A study of Mus musculus with 28 samples.

Results

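DNA methylation and Polycomb repression are the best known chromatin systems that carry gene silencing through cell division, and 10 of their core genes were followed here in mouse neural stem cells (NSCs) from brain and from peripheral tissue. The genes were taken by symbol from the deposited gene count matrix, 10 of its 28244 genes: Dnmt1, Dnmt3a, Dnmt3b, Uhrf1, Tet1, Tet2, Tet3, Ezh2, Eed and Suz12. All 10 passed the filter on low counts in every fit.

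The matrix holds 28 bulk RNA-seq libraries in 11 groups from 3 experiments, which asked how peripheral NSCs (pNSCs) compare with brain NSCs, with the tissue they came from and with neural crest stem cells (NCSCs). In the first experiment, with 2 samples per group, Tail-pNSC and Lung-pNSC stand beside Brain-NSC and the tissue samples Tail and Lung. Its labels name no reporter; the study describes such a set of lines from Nes-GFP mice, in which Nestin regulatory elements drive GFP, with lung cells from adults of 4 to 6 weeks and tail cells from pups of postnatal day 1 to 5. In the second, with 3 samples per group, Tail pNSCs and DRG pNSCs (both postnatal) and brain NSCs came from Wnt1Cre-mTmG mice, whose neural crest derivatives switch from Tomato to GFP, and DRG NCSCs from the dorsal root ganglia (DRG) of adult wild-type mice carrying neither allele. In the third, with 3 samples per group, Sox2-GFP lung pNSCs (postnatal) and brain NSCs came from mice with GFP knocked into Sox2. The strain label is C57BL/6 throughout, whereas the methods also name CD1 and CD1/C3H backgrounds. The pNSCs were clusters picked by hand after 3 weeks in medium with EGF and bFGF and were usually clonal, so a group can stand for 1 line; brain NSCs came from whole brain of adult or postnatal mice, and the age of the Tail and Lung samples is not given in the sources used here.

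The study calls its replicates biological, but neither it nor the labels say whether they were separate cultures, lines or animals, so p-values measure only the spread between these samples, part of which may be technical. Its reporting form adds that brain NSCs used as controls mostly shared their donor mice with the pNSCs, without saying for which samples, so no sample could be paired. Libraries held 9808246 to 22637031 counts. Of 7 NSC markers (Sox2, Sox1, Pax6, Olig2, Nes, Fabp7, Hes5), all 7 reached a mean of 1 cpm (counts-per-million) in each of the 8 NSC groups, against 3 in Tail, 2 in Lung and 4 in DRG NCSCs, which are labelled NSC as a cell type but had Hes5 at 0. The third DRG NCSC library stood apart from the other two (chi-square per gene 16.8 and 21.0, against 1.09 to 2.82 for all other replicate pairs), and results of the 10 members that rest on it are given without it too where a call changes. The genes of other lists named below against DRG NCSCs kept their calls by both thresholds without it, which was run after the data were seen.

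Methylation of cytosine at CpG sites is copied onto the new strand after replication by DNMT1, which UHRF1 guides to hemimethylated DNA. DNMT3A and DNMT3B methylate sites anew, and the TET enzymes oxidise the methyl group as a step towards its removal. Polycomb repressive complex 2 (PRC2) methylates lysine 27 of histone H3 through EZH2, which is active only in a complex with EED and SUZ12; in neural progenitors this mark restrains developmental regulators and the cell cycle inhibitor locus Cdkn2a.

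The promoters of the maintenance pair Uhrf1 and Dnmt1 and of the PRC2 genes Ezh2 and Suz12 are shown because these were the members whose promoter windows held a match to the E2F consensus, the motif of the factors that switch on replication genes as cells enter S phase. Each sequence is the RefSeq window of GRCm38.p6 from 250 bases before to 50 after a transcription start, read on the strand of the gene, with matches to TTTGGCGC, TTTCGCGC, TTTCCCGC or TTTGCCGC on either strand in capitals.
Uhrf1: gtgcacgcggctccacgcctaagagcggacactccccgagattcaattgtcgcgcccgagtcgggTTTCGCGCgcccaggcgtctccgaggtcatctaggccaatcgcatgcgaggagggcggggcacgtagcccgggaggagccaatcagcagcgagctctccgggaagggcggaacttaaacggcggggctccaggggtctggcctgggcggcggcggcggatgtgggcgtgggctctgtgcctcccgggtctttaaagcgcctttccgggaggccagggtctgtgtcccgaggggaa
Dnmt1: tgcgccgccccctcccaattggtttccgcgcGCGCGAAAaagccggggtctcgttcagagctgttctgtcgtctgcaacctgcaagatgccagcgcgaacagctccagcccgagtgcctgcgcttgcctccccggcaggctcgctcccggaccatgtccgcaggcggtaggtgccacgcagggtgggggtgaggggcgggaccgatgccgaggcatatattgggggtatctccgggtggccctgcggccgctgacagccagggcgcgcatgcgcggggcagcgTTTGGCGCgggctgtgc
Ezh2: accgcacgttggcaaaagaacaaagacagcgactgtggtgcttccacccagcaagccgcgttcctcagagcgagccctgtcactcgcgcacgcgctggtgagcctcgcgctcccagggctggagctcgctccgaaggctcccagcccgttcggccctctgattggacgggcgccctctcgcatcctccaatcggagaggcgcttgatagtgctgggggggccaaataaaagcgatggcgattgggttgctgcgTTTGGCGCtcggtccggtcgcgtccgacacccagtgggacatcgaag
Suz12: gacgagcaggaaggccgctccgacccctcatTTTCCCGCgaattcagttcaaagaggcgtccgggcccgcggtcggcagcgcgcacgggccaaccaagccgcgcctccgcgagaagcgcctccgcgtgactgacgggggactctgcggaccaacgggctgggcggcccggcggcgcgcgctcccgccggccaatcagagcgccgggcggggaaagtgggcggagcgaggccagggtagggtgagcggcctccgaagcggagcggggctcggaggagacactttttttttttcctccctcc
The Uhrf1 window is chr17:56304063-56304362 on the plus strand, 1 of 2 listed for the gene, with its match 185 bases before the start (TTTCGCGC at position -185). The Dnmt1 window is chr9:20952574-20952873 on the minus strand, 1 of 3 for the gene, and holds 2 matches, TTTCGCGC on the opposite strand (printed as GCGCGAAA, at -219) and TTTGGCGC at base 34 counted from the start. In the Ezh2 window, chr6:47594981-47595280 on the minus strand, TTTGGCGC lies at base 4. In the Suz12 window, chr11:79992856-79993155 on the plus strand, TTTCCCGC lies at -219. The 4 windows are rich in CpG, with 31 to 41 CpG sites and 64.3% to 71.0% G or C. The windows of Dnmt3a (3 windows), Dnmt3b, Tet1, Tet2, Tet3 and Eed held none of these letters, and of all RefSeq windows of this length 744 of 32851 (2.26%) held a match. A match describes the letters in a window and is not a measured binding site.

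On the genome build of the files (GRCm38), Dnmt1 lies at chr9:20907209-20959888, Uhrf1 at chr17:56303321-56323486, Ezh2 at chr6:47530139-47595341, Eed at chr7:89954654-89980983 and Suz12 at chr11:79993106-80034123. Dnmt3a lies at chr12:3806007-3914443, Dnmt3b at chr2:153649450-153687730, Tet1 at chr10:62804570-62908996, Tet2 at chr3:133463679-133545139 and Tet3 at chr6:83362373-83459084. In the annotation, 9 of the 10 genes overlap at least 1 other gene, Uhrf1 being the exception. Antisense partners include Dnmt3aos and Dnmt3bos, and because no source says whether counting used strand, their reads cannot be told from those of Dnmt3a and Dnmt3b.

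Levels are in cpm with TMM scaling of library sizes, and per kilobase of exon (cpm per kb) wherever genes are compared. Uhrf1 had the widest range of the 10 members over the 11 groups. It stood at 262 and 270 cpm in Tail-pNSC, at 243, 247 and 238 cpm in Wnt1Cre-mTmG DRG pNSCs, at 236, 225 and 229 cpm in Sox2-GFP lung pNSCs, at 222 and 228 cpm in Brain-NSC, at 207 and 213 cpm in Lung-pNSC and at 175, 169 and 166 cpm in Wnt1Cre-mTmG brain NSCs. It was lower in 2 NSC groups, at 67.3, 63.9 and 65.1 cpm in Wnt1Cre-mTmG Tail pNSCs and at 51.0, 49.1 and 48.8 cpm in Sox2-GFP brain NSCs. Tail held 118 and 120 cpm, DRG NCSCs 118, 126 and 108 cpm, and Lung 7.86 and 8.54 cpm. The highest group mean was 32.5 times the lowest over all groups and 5.37 times over the 8 NSC groups. In the order of group means, the samples of Sox2-GFP lung pNSCs and Brain-NSC overlapped, as did those of Tail and DRG NCSCs; other neighbours did not.

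Dnmt1, the maintenance methyltransferase, ran over a narrower range in nearly the same order. It stood at 483 and 479 cpm in Tail-pNSC, 461, 460 and 459 cpm in DRG pNSCs, 406, 417 and 407 cpm in Sox2-GFP lung pNSCs, 395 and 391 cpm in Lung-pNSC, 376 and 380 cpm in Brain-NSC and 328, 330 and 317 cpm in Wnt1Cre-mTmG brain NSCs. The groups low in Uhrf1 were low here too, with 191, 192 and 195 cpm in Wnt1Cre-mTmG Tail pNSCs and 177, 170 and 174 cpm in Sox2-GFP brain NSCs, both below Tail (227 and 213 cpm) and DRG NCSCs (240, 240 and 210 cpm). Lung was lowest at 91.2 and 93.7 cpm. Among neighbours in the order, DRG NCSCs and Tail overlapped. Per kb the pair stood close to each other in most groups: the ratio of Uhrf1 to Dnmt1 was 0.886 to 1.03 in all but Sox2-GFP brain NSCs (0.495), Wnt1Cre-mTmG Tail pNSCs (0.587) and Lung (0.154).

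**Figure D1:**
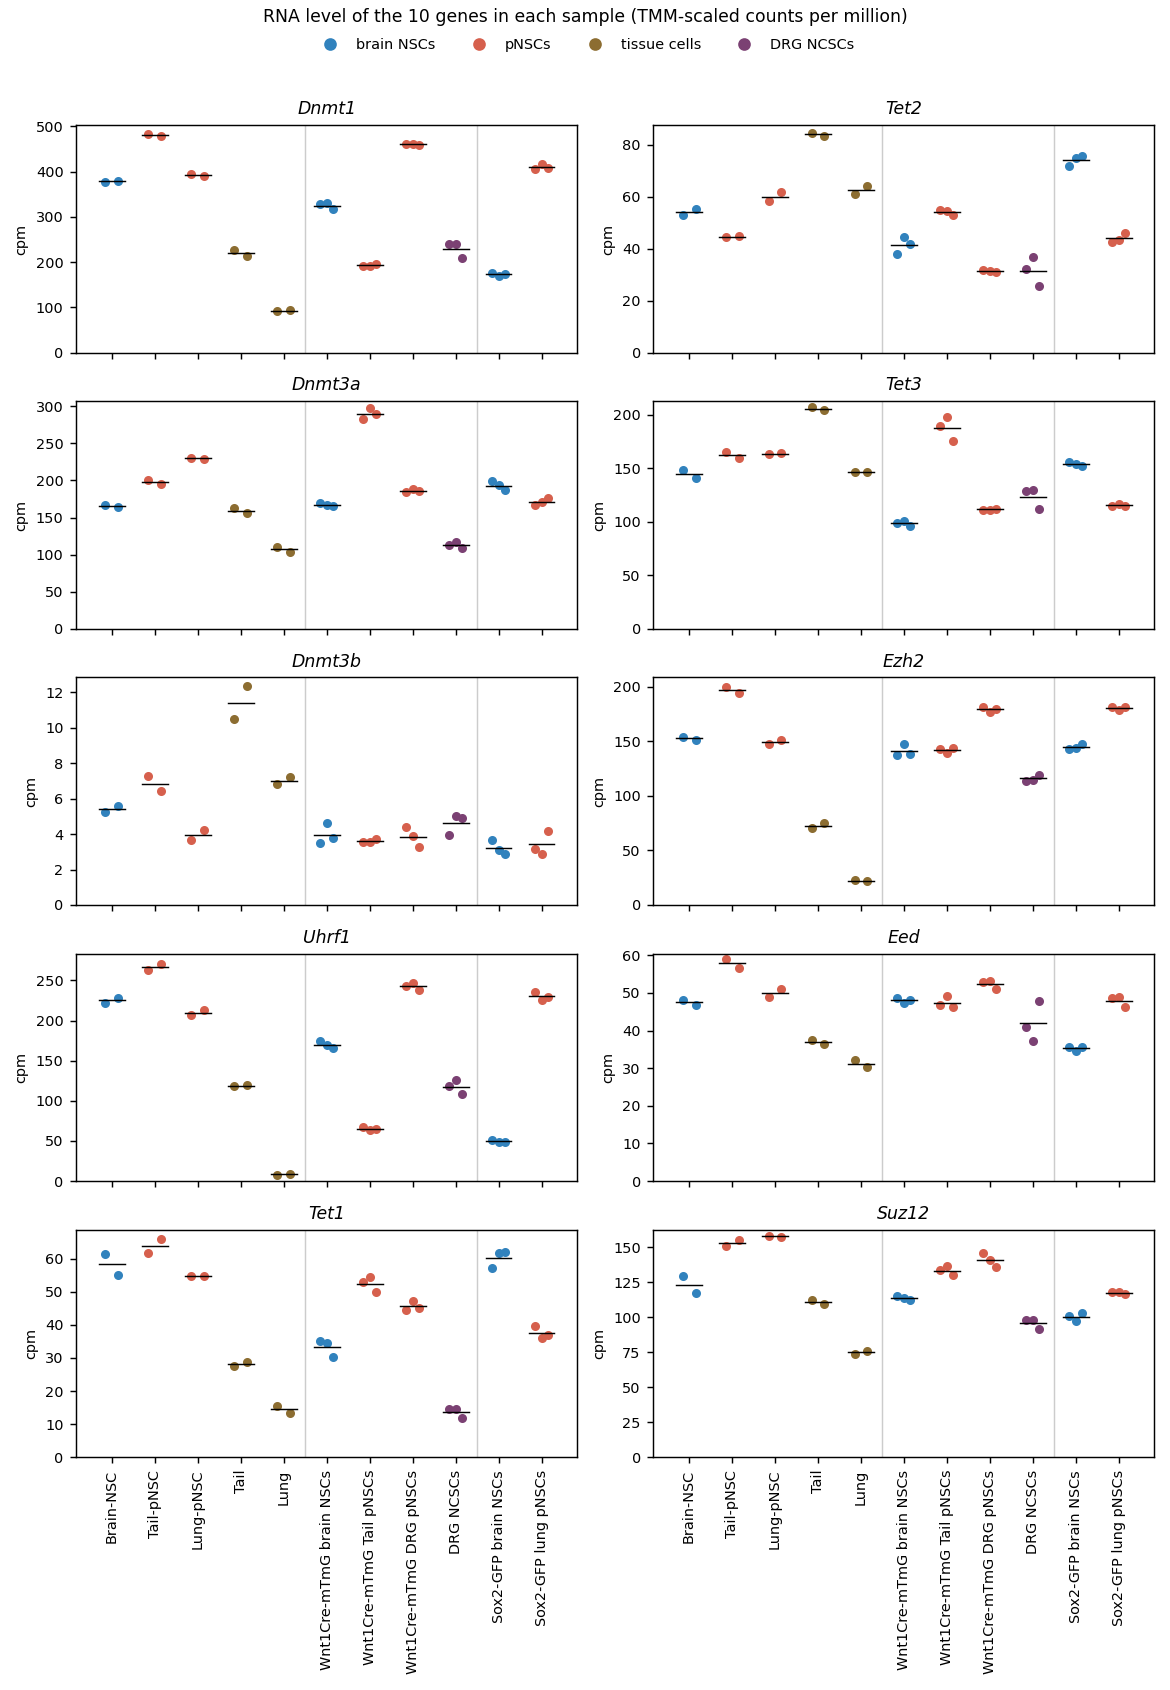
Level of each of the 10 genes in counts-per-million in the 28 samples, by group; each point is 1 sample, the black line is the group mean and grey lines separate the 3 experiments. Uhrf1, Dnmt1 and Ezh2 were lowest in Lung, and Sox2-GFP brain NSCs and Wnt1Cre-mTmG Tail pNSCs were the lowest NSC groups for Uhrf1 and Dnmt1.

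Of the de novo enzymes, Dnmt3a was the abundant one in every group. Its level was highest in Wnt1Cre-mTmG Tail pNSCs (283, 297 and 289 cpm) and lowest in Lung (110 and 104 cpm) and DRG NCSCs (113, 117 and 109 cpm), whose samples overlapped. The other 8 groups had means from 159 cpm in Tail to 230 cpm in Lung-pNSC, and several neighbours overlapped. Dnmt3b stayed low: the highest values were 10.5 and 12.4 cpm in Tail, and all 8 NSC groups had means between 3.22 and 6.86 cpm. With 34 to 194 counts per sample for Dnmt3b, groups from DRG NCSCs down the order overlapped with their neighbours.

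The TET genes did not share an order. Tet1 was higher in NSC groups, from 33.4 cpm in Wnt1Cre-mTmG brain NSCs to 63.9 cpm in Tail-pNSC, than in Tail (27.6 and 28.8 cpm), Lung (15.4 and 13.5 cpm) and DRG NCSCs (14.6, 14.6 and 11.8 cpm). Tet2 was highest in Tail (84.6 and 83.4 cpm), followed by Sox2-GFP brain NSCs (71.8, 74.8 and 75.8 cpm), and lowest in DRG NCSCs (32.4, 36.7 and 25.8 cpm) and DRG pNSCs (31.7, 31.4 and 31.2 cpm), which overlapped. Tet3 ranged from 98.7 cpm in Wnt1Cre-mTmG brain NSCs to 206 cpm in Tail, 2.09 times as high.

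Of the 3 PRC2 members, Ezh2, which encodes the catalytic subunit, varied most over the 11 groups and Eed least. Ezh2 group means ran from 22.4 cpm in Lung to 197 cpm in Tail-pNSC, 8.80 times, but over the 8 NSC groups the highest was 1.39 times the lowest, the smallest such ratio of the 10 members. Suz12 ranged over 2.10 times across all groups, from 75.1 cpm in Lung to 158 cpm in Lung-pNSC. Eed ranged over 1.85 times, from 31.2 cpm in Lung to 57.9 cpm in Tail-pNSC, with overlap between many neighbours. Per kb in Tail-pNSC, Dnmt1 (65.2 cpm per kb) and Uhrf1 (62.5) were the highest members, followed by Suz12 and Ezh2 (29.5), and Dnmt3b (1.34) was the lowest. In Lung, Suz12 led at 15.2 cpm per kb, with Ezh2 at 3.35 and Uhrf1 at 1.93. These are bulk samples, in which fewer cells of a type and less RNA per cell cannot be told apart.

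Between pNSCs and brain NSCs, members reached a fold change of 2 in 2 of 5 comparisons, and those members were Uhrf1 and Dnmt1. In the Sox2-GFP experiment, Uhrf1 was 4.72-fold higher in lung pNSCs than in brain NSCs (log2 fold change 2.24 ± 0.030 SE), and Dnmt1 was 2.41-fold higher (1.27 ± 0.022 SE), with no overlap between samples. Tet1 (-0.66), Tet2 (-0.73), Tet3 (-0.39) and Dnmt3a (-0.15) fell, while Ezh2 (0.34), Eed (0.47) and Suz12 (0.26) rose, with the largest adjusted p of these 7 at 8.61e-09 in edgeR's quasi-likelihood test with Benjamini-Hochberg adjustment. Dnmt3b did not pass (adjusted p = 0.52). By an adjusted p under 0.05 and a fold change of at least 2 in either direction, 2 of 10 members were called, where 15.7% of the 16234 genes tested were called. By the adjusted p alone, 5 rose and 4 fell, where 32.7% of genes rose and 32.8% fell. Markers of other cells moved with this contrast. Neural crest and Schwann cell markers summed to 69.0 to 73.4 cpm in brain NSCs (3 of 6 at or above 1 cpm, with Foxd3 at 0) against 10.5 to 11.1 cpm in lung pNSCs (1 of 6), and neuron markers to 37.4 to 38.9 cpm (4 of 4) against 18.1 to 19.7 cpm (2 of 4). Muscle markers summed to 7.62 to 8.23 cpm against 1.48 to 1.85 cpm (1 of 5 in both). Their part in the result was not tested.

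In the Wnt1Cre-mTmG experiment, Tail pNSCs stood the other way. Uhrf1 was 2.63-fold lower than in brain NSCs (log2 fold change -1.39 ± 0.049 SE, adjusted p = 8.64e-14 in edgeR's quasi-likelihood test) and Dnmt1 was 1.70-fold lower (-0.77 ± 0.043 SE, adjusted p = 5.33e-11). Over the same samples Tet3 (0.91), Dnmt3a (0.78), Tet1 (0.64), Tet2 (0.37) and Suz12 (0.21) rose. Ezh2 (-0.01), Eed (-0.04) and Dnmt3b (-0.15) did not pass, and their samples overlapped. The interval for Ezh2 was -0.09 to 0.07 on the log2 scale. Uhrf1 was the 1 member of 10 called by both thresholds, where 18.2% of 14448 genes were called; by the adjusted p alone 5 rose and 2 fell, against 33.1% and 32.4% of genes. Fibroblast markers moved with this group: all 6 were at or above 1 cpm in Tail pNSCs, with a summed level of 470 to 484 cpm, against 4 of 6 and 12.1 to 15.7 cpm in the brain NSCs. Neuron markers summed to 35.5 to 36.3 cpm (3 of 4) against 19.0 to 19.4 cpm (4 of 4), muscle markers to 5.87 to 6.46 against 1.60 to 2.99 cpm (1 of 5 in both) and neural crest and Schwann cell markers to 15.9 to 18.7 (3 of 6) against 22.5 to 23.5 cpm (2 of 6). Their part in the result was not tested.

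In the remaining 3 comparisons with brain NSCs no member reached a fold change of 2 with an adjusted p under 0.05. Of all genes, 10.9% did so for Tail-pNSC against Brain-NSC, 8.71% for Lung-pNSC against Brain-NSC and 9.53% for DRG pNSCs against Wnt1Cre-mTmG brain NSCs. For Tail-pNSC, by adjusted p alone, 7 members rose (Ezh2 0.34, Dnmt1 0.32, Suz12 0.29, Eed 0.26, Dnmt3a 0.23, Uhrf1 0.22 and Tet3 0.14 on the log2 scale), Tet2 fell by 0.30, and Dnmt3b and Tet1 did not pass, where 25.7% of genes rose and 23.4% fell. Tet3 lost this call without the second Brain-NSC library (adjusted p = 0.0714) and Tet1 gained it without the first (adjusted p = 0.0244). For DRG pNSCs, 7 rose (Uhrf1 0.52, Dnmt1 0.50, Tet1 0.45, Ezh2 0.35, Suz12 0.31, Tet3 0.18 and Dnmt3a 0.16), Tet2 fell by 0.39, and Eed and Dnmt3b did not pass, where 23.4% of genes rose and 22.6% fell. The Tet3 call was lost without the third brain NSC library (adjusted p = 0.0685) or the third DRG pNSC library (adjusted p = 0.0532). Markers of other cells differed here too. Neural crest and Schwann cell markers summed to 3.87 to 3.88 cpm in Tail-pNSC against 9.83 to 9.96 cpm in Brain-NSC (1 of 6 at or above 1 cpm in both), and to 6.57 to 7.53 cpm in DRG pNSCs (1 of 6) against 22.5 to 23.5 cpm in their brain NSCs (2 of 6). Neuron markers summed to 10.1 to 11.1 cpm in Lung-pNSC (3 of 4) against 28.3 to 30.8 cpm in Brain-NSC (4 of 4), and to 26.1 to 27.6 cpm in DRG pNSCs (3 of 4) against 19.0 to 19.4 cpm (4 of 4). Muscle markers summed to 4.18 to 4.98 cpm in Tail-pNSC and 4.74 to 5.10 cpm in Lung-pNSC against 8.75 to 9.93 cpm in Brain-NSC, and endothelial markers to 5.70 to 5.85 cpm in Tail-pNSC and 3.22 to 4.15 cpm in Lung-pNSC against 2.06 to 2.71 cpm. Their part in these results was not tested.

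Between Lung-pNSC and Brain-NSC, 5 members did not pass: Dnmt1, Ezh2, Eed, Tet1 and Tet2. Dnmt1 differed by 0.03 on the log2 scale (interval -0.04 to 0.10), Ezh2 by -0.06 (-0.13 to 0.02) and Eed by 0.05 (-0.08 to 0.17). Dnmt3a (0.45), Suz12 (0.33) and Tet3 (0.15) rose, and Dnmt3b (-0.48) and Uhrf1 (-0.13) fell, where 18.7% of genes rose and 21.6% fell by the adjusted p alone. Both lower calls were lost with DESeq2 (adjusted p = 0.119 for Dnmt3b and 0.0651 for Uhrf1), which leaves 3 higher and 0 lower, and without the first Lung-pNSC library (0.208 and 0.0528). The Dnmt3b call was also lost without the second Brain-NSC library (0.109), which let Tet1 pass (0.0237). Tet2 (0.12, adjusted p = 0.0704) passed with upper-quartile scaling (0.0315), with no filter (0.041) and with only these 2 groups in the fit (0.0292).

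Suz12 was higher in pNSCs in each of the 5 comparisons, by 0.21 to 0.33 on the log2 scale. These are not 5 independent comparisons, since the tail and lung lines of the first experiment share the Brain-NSC samples and the Wnt1Cre-mTmG tail and DRG lines share their brain NSCs. In each of them, 18.7% to 33.1% of all genes rose by the adjusted p alone. The share of genes that rose in all 5 was not counted. The median log2 fold change of the 10 members was 0.24 in Tail-pNSC, 0.25 in DRG pNSCs, 0.19 in Sox2-GFP lung pNSCs, 0.10 in Wnt1Cre-mTmG Tail pNSCs and 0.04 in Lung-pNSC, where the median of all genes tested lay between 0.00 and 0.01.

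**Figure D2:**
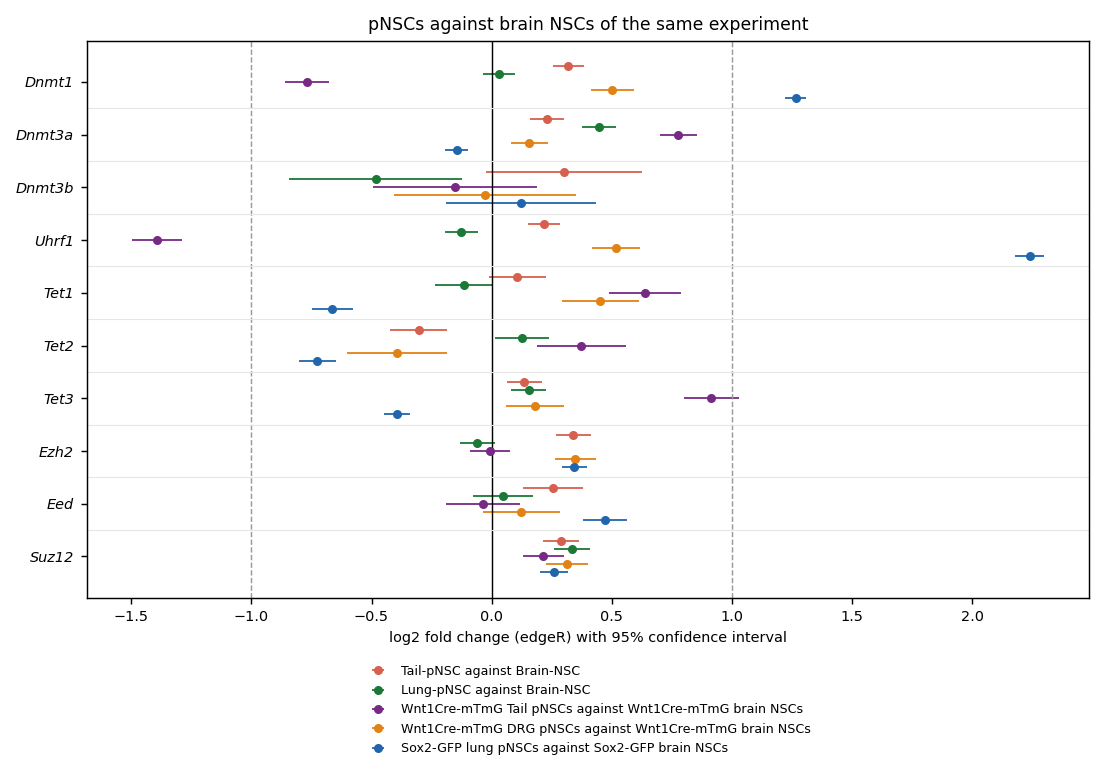
Log2 fold change of each member in pNSCs against the brain NSCs of the same experiment, with 95% confidence intervals; dashed lines mark a fold change of 2 in either direction. Uhrf1 lies above the upper line in the Sox2-GFP comparison (2.24) and below the lower line for Wnt1Cre-mTmG Tail pNSCs (-1.39), while Ezh2, Eed and Suz12 lie between the lines in all 5.

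Whether the experiments differed in these contrasts was tested by interaction terms, with all 28 samples in the fit. For tail, the pNSC against brain difference was lower in the Wnt1Cre-mTmG than in the first experiment by 1.61 log2 units for Uhrf1 (-1.61 ± 0.061 SE, adjusted p = 6.9e-23 in edgeR's quasi-likelihood test) and by 1.09 for Dnmt1 (-1.09 ± 0.056 SE, adjusted p = 7.55e-19), so that 2 of 10 members passed both thresholds, where 16% of 17393 genes did; by the adjusted p alone 4 were higher and 4 lower, against 24.5% and 24.2% of genes. Suz12 (-0.08) did not pass, but did without Brain-NSC replicate 1 (-0.16, adjusted p = 0.0326 in edgeR's quasi-likelihood test). For lung, it was higher in the Sox2-GFP experiment by 2.36 log2 units for Uhrf1 (± 0.062 SE, adjusted p = 1.03e-27) and by 1.23 for Dnmt1 (± 0.056 SE, adjusted p = 2.51e-20), again 2 of 10, where 14.1% of genes passed; by the adjusted p alone 5 were higher and 4 lower, against 24.6% and 22.2%. The Dnmt3b term of 0.60 (adjusted p = 0.031) was lost with DESeq2 (0.0929), with upper-quartile scaling (0.0538), with no filter (0.0564) and without any one of 6 libraries (replicate 1 or 2 of Brain-NSC, replicate 1 of Lung-pNSC, replicate 2 or 3 of Sox2-GFP brain NSCs and replicate 3 of Sox2-GFP lung pNSCs). Without the last of these it was 0.39 (adjusted p = 0.196 in edgeR's quasi-likelihood test). Suz12 was the 1 member that did not pass (-0.08, adjusted p = 0.258); it passed with DESeq2 (0.0413), with upper-quartile scaling (0.0383), with only the 4 groups in the fit (0.0289), without Brain-NSC replicate 1 (-0.19, 0.0132) and without Sox2-GFP brain NSC replicate 2 (0.0485). The TET genes and Dnmt3a moved against the maintenance pair in both tests, with 0.53 to 0.77 for tail and -0.86 to -0.56 for lung. The experiments differ in reporter line, in the gate and, for lung, in age, and these cannot be told apart.

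Replication and mitosis genes differed between the same groups. The summed level of 15 such genes (among them Mki67, Pcna and Mcm2 to Mcm7, encoding the replicative helicase) was 2132 cpm in Sox2-GFP brain NSCs and 2603 cpm in Wnt1Cre-mTmG Tail pNSCs, against 4116 to 5565 cpm in the other 6 NSC groups, 2264 cpm in DRG NCSCs, 2196 cpm in Tail and 416 cpm in Lung. By the adjusted p alone, all 15 rose in Sox2-GFP lung pNSCs against their brain NSCs, where 32.7% of all genes rose. All 15 fell in Wnt1Cre-mTmG Tail pNSCs against theirs, where 32.4% of all genes fell. Set against that sum, Uhrf1 stood at 41.3 to 50.6 cpm per 1000 cpm of replication genes in 6 NSC groups and at 23.3 and 25.1 in Sox2-GFP brain NSCs and Wnt1Cre-mTmG Tail pNSCs. Dnmt1 kept to 74.1 to 91.4 in all 8 NSC groups, and Ezh2, at 32.2 to 38.0 in 6 of them, reached 67.8 and 54.5 in these 2 groups. In Tail, DRG NCSCs and Lung, in that order, Uhrf1 stood at 54.2, 51.9 and 19.7 on this scale. Dnmt1 stood there at 100.3, 101.5 and 222.3, above its NSC range, and Ezh2 at 33.0, 51.3 and 53.8. Tail and DRG NCSCs thus had a low sum without the low Uhrf1 value of these 2 NSC groups. All 15 also rose in DRG pNSCs and fell in DRG NCSCs against brain NSCs, and rose in each comparison with Tail or Lung and in DRG pNSCs against DRG NCSCs, as Uhrf1 and Dnmt1 did. Of all genes, 23.4% rose in DRG pNSCs and 39.7% fell in DRG NCSCs against brain NSCs. In the other comparisons just named, 36.9% to 42.3% of all genes rose. In Wnt1Cre-mTmG Tail pNSCs against DRG NCSCs the 15 genes did not move with the pair: 8 rose and 5 fell (median 0.11), while Uhrf1 (-0.86) and Dnmt1 (-0.27) fell. Of all genes, 41.3% rose and 42.3% fell there. In Lung-pNSC against Brain-NSC, 3 of the 15 rose and 6 fell, where 18.7% of all genes rose and 21.6% fell. In Tail-pNSC against Brain-NSC, 12 rose and 0 fell, where 25.7% of all genes rose and 23.4% fell. The part of the 15 genes in the results for the pair was not tested.

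**Figure D3:**
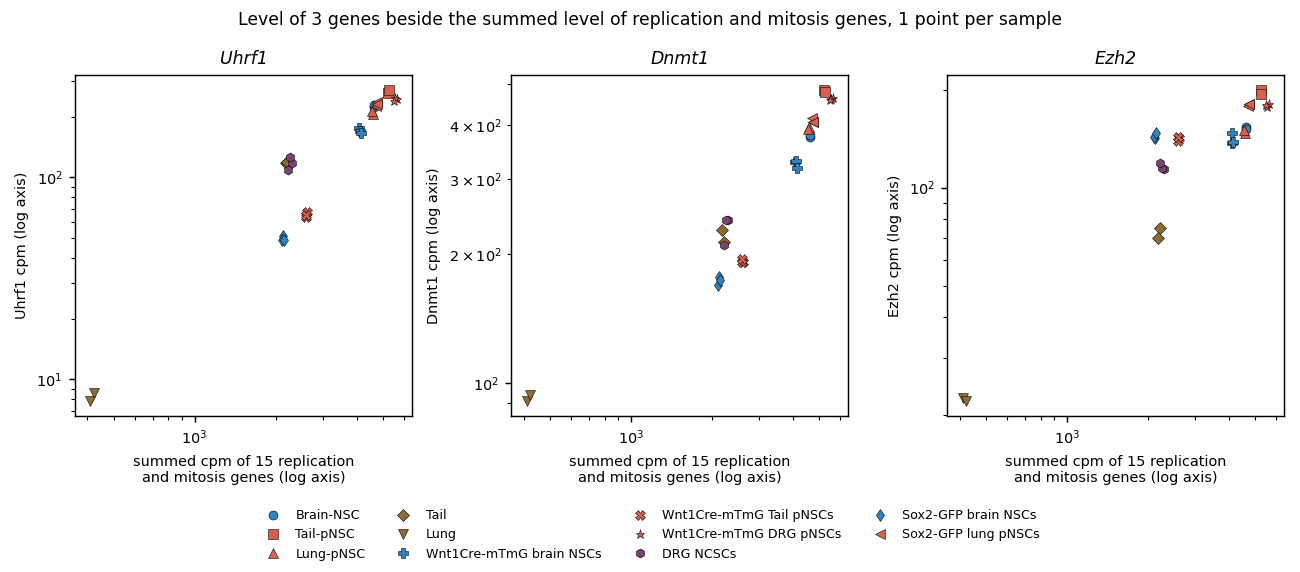
Level of Uhrf1, Dnmt1 and Ezh2 (counts-per-million) against the summed level of 15 replication and mitosis genes (counts-per-million), 1 point per sample, both axes logarithmic. Lung lies lowest on every axis (416 cpm for the sum), and Sox2-GFP brain NSCs and Wnt1Cre-mTmG Tail pNSCs lie left of the other NSC groups.

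Against the tissue samples, the maintenance pair, Tet1 and Ezh2 were higher in pNSCs, and Dnmt3b was lower. In Lung-pNSC, Uhrf1 was 24.4-fold higher than in Lung (log2 fold change 4.61 ± 0.061 SE), Ezh2 6.35-fold (2.67 ± 0.053 SE), Dnmt1 4.05-fold (2.02 ± 0.039 SE) and Tet1 3.60-fold (1.85 ± 0.080 SE). Ezh2 stood at 147 and 151 cpm in Lung-pNSC against 22.6 and 22.2 cpm in Lung. With Dnmt3a (1.03) and Suz12 (1.00), 6 of 10 members rose by both thresholds and none fell, where 20.2% of 16948 genes rose and 34.9% fell. Dnmt3a and Suz12 sat at the threshold and were under it with DESeq2 (0.94 and 0.92). By the adjusted p alone 8 rose and 2 fell, against 38.9% and 47.2% of genes. Eed rose by 0.61, and Dnmt3b fell by 0.89 (adjusted p = 7.7e-07 in edgeR's quasi-likelihood test). Tet2 (-0.13) and Tet3 (0.09) passed by the adjusted p alone but lost that call in several alternatives, Tet2 without the first Lung-pNSC library (adjusted p = 0.26) or either Lung library (0.0764 and 0.235) and Tet3 without either Lung-pNSC library (0.0503 and 0.0651) or the second Lung library (0.0572). With the replicate number as a block, the adjusted p of Tet2 was 0.0522. Tet2 was -0.05 with upper-quartile scaling (adjusted p = 0.397), and it also lost the call with no filter (0.286) and in the fit of all 28 samples (0.231), while Tet3 was 0.0018 with DESeq2 (adjusted p = 0.986).

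Sox2-GFP lung pNSCs were set against the same 2 Lung samples, from another experiment, so this comparison shares its control with the one before. Uhrf1 was 27.3-fold higher (4.77 ± 0.053 SE), Ezh2 7.82-fold (2.97 ± 0.044 SE), Dnmt1 4.31-fold (2.11 ± 0.029 SE) and Tet1 2.51-fold (1.33 ± 0.069 SE). Dnmt3b fell by 1.07, or by 0.96 without the second Sox2-GFP lung pNSC library. These were 4 members higher and 1 lower of 10 by both thresholds, where 21.3% of 16234 genes were higher and 34.9% lower. Tet2 (-0.55) and Tet3 (-0.39) fell, and Dnmt3a (0.64), Suz12 (0.61) and Eed (0.57) rose, which makes 7 higher and 3 lower by the adjusted p alone, against 42.3% and 48.5% of genes.

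In Tail-pNSC against Tail, Ezh2 was 2.53-fold higher (log2 fold change 1.34 ± 0.042 SE), at 199.6 and 194 cpm against 70.1 and 75.0 cpm. Tet1 (1.08), Uhrf1 (1.06) and Dnmt1 (1.02) rose by about the same factor, and Tet2 fell by 1.02. These were 4 of 10 members higher and 1 lower by both thresholds, where 14.1% of 16948 genes were higher and 32.6% lower. Dnmt1 and Tet2 sat at the threshold: Dnmt1 was 0.98 without the second Tail library and 0.97 with DESeq2, and Tet2 was -0.97 with upper-quartile scaling and -0.93 in the fit of all 28 samples. Eed (0.54), Suz12 (0.36) and Dnmt3a (0.21) rose, and Dnmt3b (-0.84) and Tet3 (-0.45) fell, so that by the adjusted p alone 7 were higher and 3 lower, against 36.9% and 46% of genes. Thus Tet1 and Tet2, which encode enzymes of the same reaction, moved in opposite directions here. The members' median was 0.45 against Tail, and 1.02 and 0.62 in Lung-pNSC and Sox2-GFP lung pNSCs against Lung, where the median of all genes was -0.16, -0.15 and -0.12. Both tissues hold other cells: all 6 fibroblast markers reached 1 cpm in each, with a sum of 73413 to 74863 cpm in Tail and 4151 to 4236 cpm in Lung against at most 3.01 cpm in Tail-pNSC and 1.68 cpm in Lung-pNSC, epithelial markers summed to 4188 to 4258 cpm in Tail and 11100 to 11164 cpm in Lung, endothelial markers to 804 to 825 and 3869 to 3932 cpm, and leukocyte markers to 88.7 to 89.9 and 4227 to 4251 cpm, each at most 5.85 cpm in Tail-pNSC and Lung-pNSC. Neural crest and Schwann cell markers summed to 870 to 882 cpm in Tail and 88.1 to 90.2 cpm in Lung, against 3.87 to 3.88 cpm in Tail-pNSC and 9.36 to 9.43 cpm in Lung-pNSC, and muscle markers to 277 to 281 and 323 to 331 cpm, against 4.18 to 4.98 and 4.74 to 5.10 cpm. Their part in these results was not tested.

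**Figure D4:**
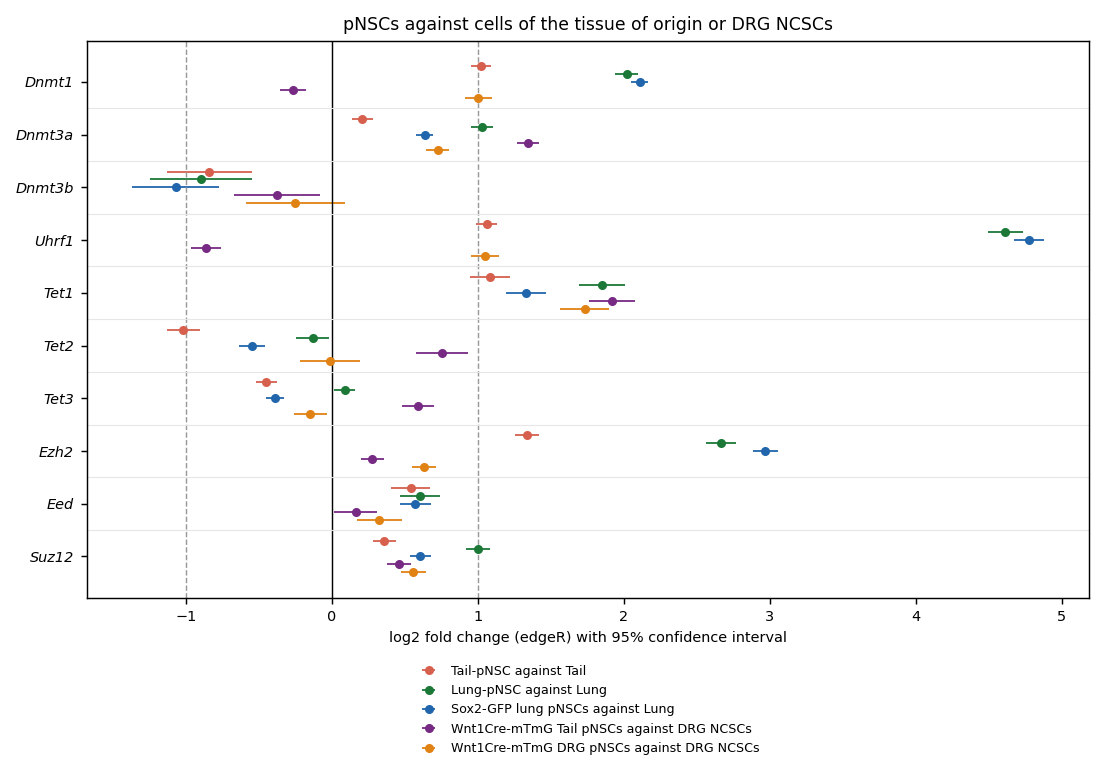
Log2 fold change of each member in pNSCs against tissue samples (Tail, Lung) or DRG NCSCs, with 95% confidence intervals; dashed lines mark a fold change of 2 in either direction. Uhrf1 reaches 4.61 and 4.77 in the comparisons with Lung, and Dnmt3b lies below 0 in all 5.

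DRG NCSCs carried less Tet1 and Dnmt3a than either pNSC group of the same experiment. Tet1 was 3.78-fold higher in Wnt1Cre-mTmG Tail pNSCs (52.9, 54.4 and 49.9 cpm; log2 fold change 1.92 ± 0.074 SE, adjusted p = 6.5e-14 in edgeR's quasi-likelihood test) and 3.32-fold higher in DRG pNSCs (44.5, 47.2 and 45.2 cpm; 1.73 ± 0.079 SE, adjusted p = 8.46e-13) than in DRG NCSCs. Dnmt3a was higher by 1.35 and 0.73. The maintenance pair differed in direction between the pNSC groups: in DRG pNSCs Uhrf1 was higher by 1.05 and Dnmt1 by 1.00, whereas in Tail pNSCs Uhrf1 fell (-0.86 ± 0.048 SE) and so did Dnmt1 (-0.27 ± 0.043 SE). By both thresholds, 2 of 10 members rose in Tail pNSCs, where 15.3% of 14448 genes were higher and 22.6% lower, and 3 of 10 in DRG pNSCs, where 15.1% were higher and 23.3% lower; none fell in either. Without the third DRG NCSC library, Dnmt1 and Uhrf1 in DRG pNSCs came to 0.94 and 0.995, and 1 member was called. Neural crest and Schwann cell markers summed to 4291 to 4395 cpm in DRG NCSCs. They reached 15.9 to 18.7 cpm in Tail pNSCs and 6.57 to 7.53 cpm in DRG pNSCs. In the same order, fibroblast markers summed to 7009 to 7123, 470 to 484 and 15.8 to 17.2 cpm. Leukocyte markers summed to 592 to 625, 0.841 to 1.30 and 2.84 to 2.97 cpm. Neuron markers summed to 367 to 369, 35.5 to 36.3 and 26.1 to 27.6 cpm. The part of these markers was not tested.

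By the adjusted p alone 7 rose and 3 fell in Tail pNSCs, where 41.3% of genes rose and 42.3% fell, and 7 rose and 1 fell in DRG pNSCs, where 40.8% rose and 41.6% fell. The PRC2 genes were among those that rose. Ezh2 rose by 0.28 and 0.63 in Tail and DRG pNSCs, respectively, and Suz12 by 0.46 and 0.56. Eed rose by 0.32 in DRG pNSCs (adjusted p = 0.000564 in edgeR's quasi-likelihood test); its 0.16 in Tail pNSCs lost the call when any of 4 libraries was left out (adjusted p from 0.0574 to 0.246), with DESeq2 (0.167), with no filter (0.0624) and with only the 2 groups in the fit (0.105), and the samples overlapped. Dnmt3b fell by 0.37 in Tail pNSCs, a call lost without the first or second Tail pNSC library or the second DRG NCSC library (adjusted p from 0.0542 to 0.0781). Tet2 (0.76) and Tet3 (0.59) rose in Tail pNSCs. In DRG pNSCs Tet2 (-0.01, interval -0.21 to 0.19) and Dnmt3b (-0.25) did not pass, and Tet3 fell by 0.15, a call lost without any of 4 libraries (adjusted p from 0.0619 to 0.0794).

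DRG NCSCs against the Wnt1Cre-mTmG brain NSCs showed lower levels for 8 of the 10 members by the adjusted p alone, where 39.7% of genes were lower. Tet1 fell 2.43-fold (-1.28 ± 0.082 SE, adjusted p = 1.15e-10 in edgeR's quasi-likelihood test) and was the 1 member called by both thresholds, where 36.9% of 14448 genes were called. Dnmt3a (-0.57), Uhrf1 (-0.53), Dnmt1 (-0.50), Tet2 (-0.38), Ezh2 (-0.29), Suz12 (-0.25) and Eed (-0.20) fell too, Eed losing the call without the first (adjusted p = 0.0596) or second (0.116) DRG NCSC library, with DESeq2 (0.0723) and with only the 2 groups in the fit (0.0917). Tet3 was the 1 member that rose (0.33), where 42% of genes were higher, and Dnmt3b did not pass (adjusted p = 0.2). The NCSC samples also held fibroblast markers (7009 to 7123 cpm in sum), neural crest and Schwann cell markers (4291 to 4395 cpm), leukocyte markers (592 to 625 cpm), neuron markers (367 to 369 cpm) and endothelial markers (23.5 to 28.9 cpm), against 12.1 to 15.7, 22.5 to 23.5, 1.87 to 2.95, 19.0 to 19.4 and 2.99 to 3.39 cpm in the brain NSCs, and their part in the result was not tested. All 3 comparisons with DRG NCSCs share those samples and set reporter against wild-type mice. Those with pNSCs also set postnatal against adult mice. These differences cannot be told apart.

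The catalytic paralogue of Ezh2 ran the other way. Ezh1, whose product can replace EZH2 and is the usual form in cells that no longer divide, was at 5.87 to 16.6 cpm in the 8 NSC groups against 106.5 cpm in Lung, 50.4 cpm in Tail and 40.8 cpm in DRG NCSCs. It fell by 3.28 in Lung-pNSC and by 3.23 in Sox2-GFP lung pNSCs against Lung, by 3.21 in Tail-pNSC against Tail, and by 2.31 and 1.87 in DRG and Tail pNSCs against DRG NCSCs. Per kb, Ezh2 was 9.67 to 37.4 times Ezh1 in the NSC groups, 3.18 times in DRG NCSCs, 1.60 times in Tail and 0.234 times in Lung, so that Lung held more Ezh1 than Ezh2.

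**Figure D5:**
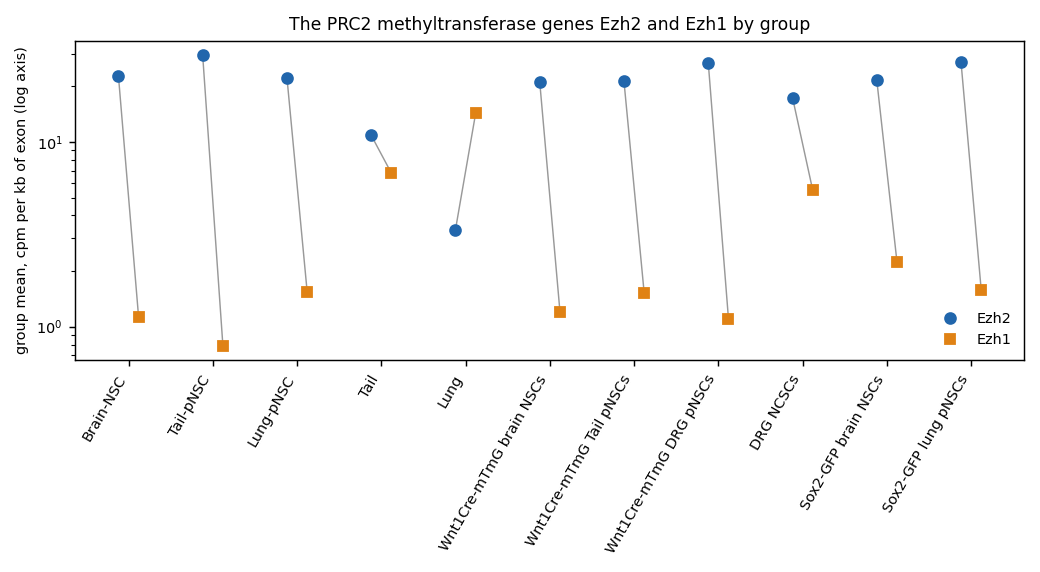
Group means of Ezh2 and Ezh1 in counts-per-million per kilobase of exon, on a logarithmic axis, in the 11 groups. Ezh2 lies above Ezh1 in every group except Lung, where the ratio is 0.234.

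Of the other PRC2 genes, 10 were tested in each fit. By both thresholds, Rbbp4, encoding the histone-binding subunit, rose by 1.13 in Tail-pNSC against Tail and by 1.26 and 1.53 in Lung-pNSC and Sox2-GFP lung pNSCs against Lung, where Phf19 rose by 1.76 and 2.29 and Phf1 fell by 2.68 and 2.50. PHF1 and PHF19 are alternative accessory subunits. Against brain NSCs, Epop, whose product binds a SUZ12 surface and links PRC2 to elongin, rose by 1.06 in Tail-pNSC, 1.31 in Wnt1Cre-mTmG Tail pNSCs and 1.42 in DRG pNSCs, and also by 1.85 in DRG NCSCs, together with Ezh1 (2.18) and Phf1 (1.35). Phf19 fell by 1.26 in Tail-pNSC, and Jarid2, an accessory subunit that helps recruit PRC2, fell by 1.05 in Sox2-GFP lung pNSCs. By the adjusted p alone, 6 of 10 rose and 2 fell in Tail-pNSC, 2 rose and 2 fell in Lung-pNSC, 4 rose and 3 fell in Wnt1Cre-mTmG Tail pNSCs, 7 rose and 1 fell in DRG pNSCs, and 7 rose and 2 fell in Sox2-GFP lung pNSCs. By the same rule, 25.7% of all genes tested rose and 23.4% fell in Tail-pNSC, 18.7% and 21.6% in Lung-pNSC, 33.1% and 32.4% in Wnt1Cre-mTmG Tail pNSCs, 23.4% and 22.6% in DRG pNSCs, and 32.7% and 32.8% in Sox2-GFP lung pNSCs. The list's median log2 fold change in these 5 comparisons was 0.24, 0.00, 0.16, 0.20 and 0.32. Against DRG NCSCs, Jarid2 rose by 1.35 and Phf1 fell by 1.18 in Tail pNSCs.

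PRC1, which binds the PRC2 mark and ubiquitylates histone H2A, was followed through 23 genes. Against brain NSCs, 11 rose and 3 fell by the adjusted p in Tail-pNSC, 6 rose and 5 fell in Lung-pNSC, 10 rose and 6 fell in Wnt1Cre-mTmG Tail pNSCs, 6 rose and 0 fell in DRG pNSCs, and 11 rose and 7 fell in Sox2-GFP lung pNSCs, with medians of 0.11, -0.03, 0.10, 0.12 and 0.06. Of all genes, 25.7%, 18.7%, 33.1%, 23.4% and 32.7% rose and 23.4%, 21.6%, 32.4%, 22.6% and 32.8% fell in these comparisons. Those that rose by both thresholds included Pcgf2 (2.53) and Bcor (1.27) in Wnt1Cre-mTmG Tail pNSCs and Scml2 (1.11) in Lung-pNSC. In DRG NCSCs, Pcgf2 (2.69), Bcor (1.71) and Scmh1 (1.13) rose against brain NSCs. In Tail-pNSC against Tail, 12 of the 23 rose and 9 fell by the adjusted p alone, beside 36.9% and 46% of all genes. There Bmi1 rose by 1.95 and its paralogue Pcgf2 fell by 3.68, while Phc2 rose by 1.41 and Cbx7 fell by 1.55. Against Lung, Cbx7, encoding a reader of the PRC2 mark, fell by 4.00 in Lung-pNSC and 3.73 in Sox2-GFP lung pNSCs, while Scml2 rose by 2.85 and 2.70; Rnf2 (1.62) rose and Pcgf2 (-2.90) fell in Lung-pNSC, and Kdm2b (1.67) rose and Scmh1 (-1.54) fell in Sox2-GFP lung pNSCs. In DRG pNSCs against DRG NCSCs, Scml2 (1.47) and Bmi1 (1.11) rose and Pcgf2 (-2.10) and Bcor (-1.42) fell, and Scmh1 (-1.07) fell in Tail pNSCs.

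Among 6 genes that oppose Polycomb (the H3K27 demethylases Kdm6a and Kdm6b, and Bap1 and its partners Asxl1 to Asxl3, which remove ubiquitin from histone H2A), Asxl3 rose against brain NSCs in Tail-pNSC (1.18), Wnt1Cre-mTmG Tail pNSCs (1.58), DRG pNSCs (1.51) and DRG NCSCs (1.34), and against Lung in Lung-pNSC (1.24) and Sox2-GFP lung pNSCs (1.17). In Sox2-GFP lung pNSCs Asxl3 fell against brain NSCs (-0.72, adjusted p = 1.28e-11 in edgeR's quasi-likelihood test), in Lung-pNSC it did not pass (0.38, adjusted p = 0.061), and the lung interaction was -1.11 (adjusted p = 0.00025). Kdm6a rose by 1.10 in DRG NCSCs against brain NSCs and fell by 1.05 in DRG pNSCs against DRG NCSCs. Against brain NSCs, by the adjusted p alone, all 6 rose in Tail-pNSC, 2 rose and 0 fell in Lung-pNSC, 3 rose and 1 fell in Wnt1Cre-mTmG Tail pNSCs, 2 rose and 0 fell in DRG pNSCs, and 3 rose and 3 fell in Sox2-GFP lung pNSCs, beside 25.7%, 18.7%, 33.1%, 23.4% and 32.7% of all genes that rose and 23.4%, 21.6%, 32.4%, 22.6% and 32.8% that fell. The medians were 0.26, 0.05, 0.36, 0.06 and -0.11.

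Of the other DNA methylation genes, 21 or 22 of 24 were tested in each fit. Hells, a chromatin remodeller needed for DNA methylation, rose with the maintenance pair in several comparisons. It rose by 1.72 in Sox2-GFP lung pNSCs against brain NSCs and by 1.01 in Tail-pNSC against Tail. Against Lung it rose by 3.79 in Lung-pNSC and by 3.99 in Sox2-GFP lung pNSCs. In Wnt1Cre-mTmG Tail pNSCs against brain NSCs, where the pair fell, Hells did not pass both thresholds, and neither did Dnmt1. This does not show that Hells was unchanged there. Its group means ran from 5.77 cpm in Lung to 126.6 cpm in Tail-pNSC. Tdg, the glycosylase that excises oxidised methylcytosine, rose by 2.08 and 2.42 against Lung and by 1.35 and 1.23 in DRG and Tail pNSCs against DRG NCSCs. Gadd45b, a stress gene linked to demethylation, fell by 7.35 in Tail-pNSC against Tail and by 4.79 and 3.37 against Lung, and Zbtb4, a reader of methylated DNA, fell by 3.42 against Tail and by 3.57 in Sox2-GFP lung pNSCs against Lung. Zfp57 fell by 4.20 in Lung-pNSC against Lung.

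Against brain NSCs some of these passed both thresholds. Of all genes, 10.9% passed both in Tail-pNSC, 8.71% in Lung-pNSC and 18.2% in Wnt1Cre-mTmG Tail pNSCs. The share was 9.53% in DRG pNSCs and 15.7% in Sox2-GFP lung pNSCs. Whether the list differed from these shares was not tested. Gadd45b fell by 1.20 in Tail-pNSC, Zbtb4 rose by 1.10 in Lung-pNSC, Idh1 fell by 1.17 in Wnt1Cre-mTmG Tail pNSCs, and Dnmt3c (-1.43) and Cxxc4 (-1.32) fell in Sox2-GFP lung pNSCs; DRG pNSCs had none. Reads of Dnmt3c may be shared with Dnmt3b, of which it is a duplicate. The highest group mean of Dnmt3c was 0.829 cpm, in Sox2-GFP brain NSCs, so its fold change rests on few reads. By the adjusted p alone, 8 rose and 6 fell in Tail-pNSC, 4 and 10 in Lung-pNSC, 11 and 6 in Wnt1Cre-mTmG Tail pNSCs, 10 and 4 in DRG pNSCs, and 7 and 9 in Sox2-GFP lung pNSCs, with medians of 0.08, -0.11, 0.22, 0.13 and -0.05. These counts are of 21 genes tested, or 22 in the Sox2-GFP fit, beside 25.7% and 23.4%, 18.7% and 21.6%, 33.1% and 32.4%, 23.4% and 22.6%, and 32.7% and 32.8% of all genes. In DRG NCSCs against brain NSCs, 4 of 21 were higher and 1 lower by both thresholds, where 36.9% of all genes were called. Gadd45a (3.24), Zbtb38 (2.59) and Zbtb4 (2.11) were higher and Cxxc4 (-2.89) lower. Cxxc4, which binds unmethylated CpG, was higher by 3.26 and 2.40 in Tail and DRG pNSCs than in DRG NCSCs, against which Gadd45a (-2.67 and -3.62) and Zbtb38 (-2.29 and -2.60) fell.

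The genes whose pattern over the 11 groups lay nearest to a member were ranked by the root mean square difference of centred log2 group means, as a description over groups that share libraries, among 17383 genes. Nearest to Uhrf1 were Clspn (0.232), Exo1 (0.286) and Dtl (0.299), nearest to Dnmt1 Haus6 (0.111), Hirip3 (0.113) and Tex30 (0.137), and nearest to Ezh2 Cenpq (0.171), Fbxo5 (0.172) and Incenp (0.173). Suz12 lay nearest to Nt5c3b (0.0942), Selenoi (0.101) and Dhodh (0.111), and Eed to Nufip1 (0.0663), Stub1 (0.0703) and Ube2j2 (0.0707). Dnmt3a lay nearest to Zkscan17 (0.129), Trap1 (0.152) and Mrpl38 (0.154), and Dnmt3b to Ankrd27 (0.137), Rcor1 (0.189) and Larp1b (0.197). For the TET genes the nearest included C530044C16Rik, Inhbb and Entpd6 for Tet1 (0.273 to 0.284), Spata1, Polb and Epg5 for Tet2 (0.217 to 0.228) and Hist1h1e (0.115) and Pard3 (0.150) for Tet3. Among the members, Eed and Suz12 lay closest to each other (0.141), then Dnmt3a and Suz12 (0.242) and Tet2 and Tet3 (0.287), whereas Dnmt1 was nearer to Ezh2 (0.464) than to Uhrf1 (0.733), whose range is wider. Genes that vary little over the groups, such as Eed (1.85 times) and Suz12 (2.10 times), lie close by this measure. Such closeness need not mean a shared pattern.

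Genes that Polycomb or DNA methylation are known to silence were read as a last readout. Of 11 Polycomb targets, Gata6 (85.6 cpm), Foxa2 (58.7 cpm), Sox17 (115.8 cpm) and Tbx5 (68.5 cpm) had their highest mean in Lung and at most 0.439 cpm in any NSC group; Tbx3 was at 236.7 cpm in Lung and at most 2.57 cpm in an NSC group, and Eomes at most 1.58 cpm. Cdkn2a, which encodes cell cycle inhibitors, went the other way, with means of 29.6 to 94.4 cpm in the NSC groups against 0.187 cpm in Tail and 0.929 cpm in Lung. The Tail libraries held only 1 and 5 counts of Cdkn2a, so that comparison is given by level. Against Lung, with 12 and 20 counts, its log2 fold change was 5.43 in Lung-pNSC and 5.90 in Sox2-GFP lung pNSCs. It fell by 1.69 in Wnt1Cre-mTmG Tail pNSCs and by 2.25 in DRG NCSCs against brain NSCs, and rose by 1.51 in DRG pNSCs against DRG NCSCs. Cdkn2b rose by 1.50 in Tail-pNSC against Brain-NSC, fell by 1.05 in Sox2-GFP lung pNSCs against brain NSCs and by 1.96 in DRG pNSCs against DRG NCSCs. Of 13 germline genes that promoter methylation silences, none exceeded a mean of 6.59 cpm in any group: Brdt had 2.18 to 6.59 cpm, Sycp1 at most 3.57 cpm, Ddx4 at most 1.40 cpm, and the other 10 at most 1.26 cpm.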

How the data were processed

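Poly-A RNA from 28 samples was sequenced single-end on a NextSeq500 from NEBNext Ultra libraries. The authors deposited 1 matrix of raw counts per gene (GRCm38). The submitters' processing notes name HISAT2, Cufflinks and HTSeq; the counting mode, strand setting and annotation release are not given in the sources used here, and each can shift the counts of overlapping genes. The authors' quantile normalization and log2 values came after these counts and were not used.

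Here, counts were tested with edgeR 4.0.16 in R 4.3.3 (TMM scaling, filterByExpr with a minimum count of 10 and a minimum total of 15, quasi-likelihood F-test, Benjamini-Hochberg adjustment over all genes), in 1 fit per experiment; the fit of the third also held the 2 Lung samples. Fits covered 16948, 14448 and 16234 genes, and a fit of all 28 samples, for the 2 interactions, 17393. There were 11 comparisons. A gene was called at an adjusted p under 0.05, alone or together with a fold change of 2 or more (log2 of 1 or more, either sign). Standard errors are the fold change over the root of F. Exact permutation tests of single values cannot go below p = 0.1 for 3 against 3 samples, 0.2 for 3 against 2 and 0.333 for 2 against 2 (two-sided), so none was used. On simulated counts for 4 of these contrasts, all 200 of 200 genes changed 3-fold were recovered in each, with 0 to 2 false calls by both thresholds and 5 to 10 by the adjusted p alone. These counts gave every gene of a contrast the same spread, changed only genes of higher count and held no outlying library. No contrast with Tail, Lung or DRG NCSCs was simulated, so error rates in the real data may be higher.

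Members and gene lists were chosen with earlier results of these data known. All members were named; of each list, up to 3 genes per direction passing both thresholds against brain NSCs and up to 2 elsewhere, by size of change, except that genes at or near 0 in a group are given by level, and that 1 gene is not reported here. Same-numbered replicates did not deviate together (correlations -0.0293 to 0.028 over 45 pairs), so no pairing was used. Exon lengths came from GENCODE M21, promoters from RefSeq (GRCm38.p6). Alternatives were DESeq2 1.42.0, upper-quartile scaling, no filter, other sample sets in the fit, a replicate block and leaving out each replicate, for the members; for the other lists, only the third DRG NCSC library was left out.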

Additional observations from a re-analysis of the deposited data

Results flagged for a closer look

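For the maintenance pair, the difference between pNSC and brain NSC groups was not the same in each experiment. In tail, the difference between pNSCs and brain NSCs was lower in the Wnt1Cre-mTmG experiment than in the first, with an interaction of -1.61 log2 units for Uhrf1 and -1.09 for Dnmt1. In lung, it was higher in the Sox2-GFP experiment than in the first by 2.36 log2 units for Uhrf1 and 1.23 for Dnmt1. These 4 values were singled out because the interaction itself passed both thresholds.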

How the results depend on the processing

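Of 770 fold changes recomputed with 1 replicate left out, 728 kept their direction and side of the adjusted p threshold, 31 lost the call, 5 gained it and 6 changed direction; of 760 under the other alternatives, 738 kept both, 15 lost the call, 6 gained it and 1 changed direction. None of the 7 that changed direction was called. With 1 replicate left out, Ezh2 in Wnt1Cre-mTmG Tail pNSCs against brain NSCs (-0.01) ranged from -0.028 to 0.025, above 0 without Tail pNSC or brain NSC replicate 2. Dnmt3b in DRG pNSCs against brain NSCs (-0.03) ranged from -0.14 to 0.090, above 0 without brain NSC replicate 2 or DRG pNSC replicate 3. Tet2 in DRG pNSCs against DRG NCSCs (-0.01) ranged from -0.13 to 0.10, above 0 without DRG NCSC replicate 2, and was 0.014 with upper-quartile scaling. Dnmt3b in Sox2-GFP lung pNSCs against brain NSCs (0.12) ranged from -0.052 to 0.23, below 0 without lung pNSC replicate 3. The number of members called by adjusted p alone in Lung-pNSC against Brain-NSC was 5, and 3 with DESeq2 or at the lowest, without Lung-pNSC replicate 1, of a range of 3 to 5 with 1 replicate left out. The number called by both thresholds in DRG pNSCs against DRG NCSCs was 3, and 1 with DESeq2 or at the lowest, without DRG NCSC replicate 3, of a range of 1 to 3; the cause was not tested.

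With the replicate number as a block, 129 of 130 members' fold changes kept their call, and Lung-pNSC against Lung went from 10 to 9 members called by adjusted p alone (Tet2); over all genes, Tail-pNSC against Brain-NSC went from 1848 to 1788 called by both thresholds. Levels without TMM were 0.908 to 1.05 times those given. Depth limited Dnmt3b most, at 34 to 194 counts per sample.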
